A study of Homo sapiens with 36 samples.

Results

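PAR-CLIP clusters lying beyond the annotated ends of protein-coding genes were examined. A cluster is a short stretch of RNA to which crosslinked reads with T-to-C conversions mapped. Of 278185 clusters in 18 deposited lists, 11076 (3.98%) had a midpoint outside every GENCODE 44 gene body of their strand and 1 to 20000 nt downstream of the end of a protein-coding gene on that strand (GRCh38). SCAF4 IP lists held 3599 of them, SCAF8 IP lists 4282, control IP lists 373 and input lists 2822. Each cluster was given to the nearest upstream end of a protein-coding gene, and genes of other types can lie between. The named gene is therefore a neighbour and not a proven source of the RNA.

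The cells were HEK293 Flp-in T-Rex, a human embryonic kidney line with an integrated site for inducible transgenes, and all were labelled WT for CRISPR status. One line expressed FLAG-SCAF4 and another FLAG-SCAF8 after overnight induction with doxycycline, at 100 ng/mL by the labels. The parental cells, which carry no tagged protein, served as control, and their labels give no doxycycline. By the study's methods all lines received doxycycline, at a higher dose than labelled. All received 100 uM 4-thiouridine overnight, a 500 uM pulse for 2 h and 365 nm UV at 2000 J/m2. FLAG IP and input RNA were sequenced in 3 replicates per line, and each list combined the soluble and chromatin fractions of a replicate. The tagged proteins came from an induced transgene on top of the cells' own SCAF4 and SCAF8.

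SCAF4 and SCAF8 are RNA-binding proteins that recognise the phosphorylated C-terminal domain of RNA polymerase II. The polymerase normally runs past the polyadenylation site, the transcript is cleaved behind it, and the downstream RNA is degraded by the nuclease XRN2 until transcription stops. RNA beyond a gene end can therefore come from the normal termination zone, from readthrough of a polymerase that failed to stop, or from a separate unannotated transcript. The clusters alone do not tell these sources apart.

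The 5 pooled consensus regions found in the most SCAF IP lists are given as examples. Each was covered in 6 of 6 SCAF IP lists, and ties were ordered by length. Below, 30 nt of each is printed 5′ to 3′ on the transcribed strand of GRCh38, around the CGG or CGA nearest the midpoint, which is in capitals. The place of the triplet in the window is thus by choice and is not evidence of a contact site. The background regions named further below hold CGG or CGA as well. The SNRPE region holds neither triplet, so its centre is shown.
RPL13, chr16:89564845-89564874, plus strand: tttcctgctgcctgCGGggccgcacctgga
LCN10, chr9:136721375-136721404, minus strand: gcgccctccctgccCGGaatagtaagtgag
TARS1, chr5:33469266-33469295, plus strand: ggagatggcactgtCGGcttccctgctttt
ELK1, chrX:47634196-47634225, minus strand: cagtggctgagaaaCGGattgtgtgtccat
SNRPE, chr1:203871478-203871507, plus strand: ggttctatttttgacagagcaaatgatgat

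The RPL13 region was 520 nt long, had its midpoint 356 nt beyond the gene end and met no input and no control IP cluster. RPL13 encodes a protein of the large ribosomal subunit. The regions next to SNRPE, a spliceosomal Sm protein gene, TARS1, a threonyl-tRNA synthetase gene, and ELK1, a transcription factor gene, lay 341, 1127 and 1294 nt downstream and each met a cluster in 1 input list. The LCN10 region lay 16822 nt away, inside DIPK1B of the opposite strand, and LCN10 itself held 0 clusters in its body in all 18 lists. Another gene of its strand begins 8312 nt beyond the LCN10 end and so lies between.

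A different set was shared with the background. Regions downstream of DYRK1B (a pair of them), ALYREF, RPL8 and FBL were covered in all 12 input and control IP lists and in 4 to 6 of the SCAF IP lists. ALYREF encodes an mRNA export adaptor and FBL the methyltransferase of box C/D snoRNPs. The longest of these regions, 1606 nt long, lay 768 nt beyond DYRK1B. The RPL8 and FBL regions, 584 and 386 nt long, had midpoints only 96 and 39 nt beyond the gene end. Both therefore reached back into the gene. In all, 139 of 4141 downstream regions merged over the 18 lists were covered in at least 6 of the 12 background lists, and 2957 were covered in none of them.

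The share of clusters that lay downstream did not separate SCAF IP from input. In SCAF4 IP it was 1.75%, 3.84% and 3.47% in replicates 1 to 3, and in SCAF8 IP it was 2.83%, 5.19% and 6.31%. The inputs of the SCAF4 line gave 2.39%, 3.95% and 3.46%, and those of the SCAF8 line 2.84%, 5.13% and 5.28%. Replicate 1 had the lowest share in every one of these groups. Control IP gave 2.79%, 2.29% and 3.15%, and control input 2.80%, 5.47% and 6.02%. The exact Clopper-Pearson 95% interval was 1.57 to 1.94% for SCAF4 IP replicate 1 and 1.72 to 2.99% for control IP replicate 2, which had 53 downstream clusters. Intervals cover counting error only, and the read depth behind the clusters is unknown.

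**Figure D1:**
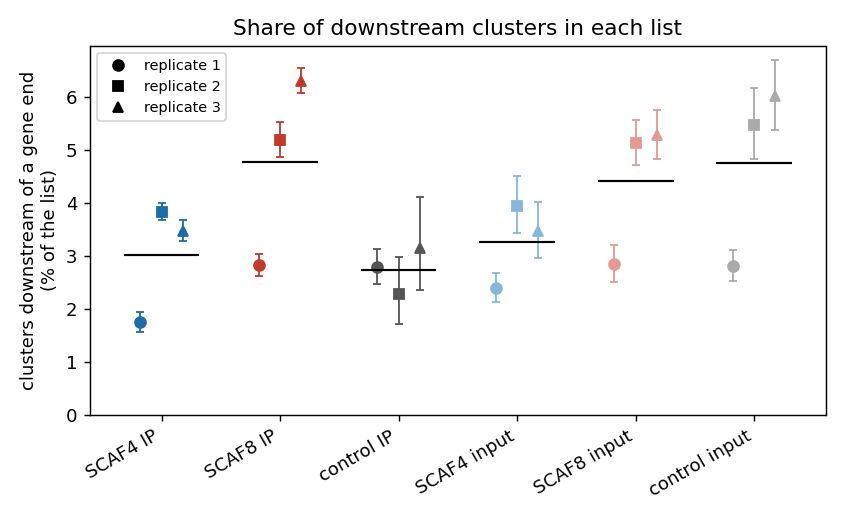
Percentage of each list's clusters lying downstream of a gene end (vertical axis) by group (horizontal axis). Points are the 18 lists, bars their exact 95% intervals and horizontal lines the group means; SCAF IP lists (1.75 to 6.31%) overlap those of their inputs (2.39 to 5.28%).

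The SCAF IP lists averaged 3.90% ± 1.64 (SD, n = 6) against 3.84% ± 1.18 (n = 6) in their own inputs, a difference of 0.055 percentage points (two-sided exact permutation test, p = 0.965, adjusted p = 0.965 over 21 tests). They exceeded control IP (2.74% ± 0.43, n = 3) by 1.16 points, which did not pass (exact permutation test, p = 0.286). The mean of SCAF4 IP minus that of SCAF8 IP was −1.76 points, with overlapping lists (exact permutation test, p = 0.30; 3 lists against 3 cannot go below 0.10). Within a line, IP minus input was −0.25 points for SCAF4 (p = 0.70), 0.36 for SCAF8 (p = 0.80) and −2.02 for the control line (p = 0.20, all by exact permutation). The IP-minus-input difference was not shown to differ between the SCAF4 and SCAF8 lines (exact permutation test, p = 0.20).

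Density fell with distance from the gene end. Among the 9830 protein-coding genes with a cluster in the body in any list, merged SCAF IP regions numbered 78.2 per Mb of available sequence in the first 1000 nt, 39.4 per Mb from 2001 to 5000 nt and 14.3 per Mb from 10001 to 20000 nt. Available sequence is downstream sequence outside all gene bodies of the strand. Input regions fell from 23.3 to 4.83 per Mb over the same span and control IP regions from 5.04 to 1.34 per Mb. Their levels depend on the number and size of the lists and are not compared. No break appeared at the outer limit: 350 clusters lay in the last 2000 nt before the limit of 20000 nt and 343 in the 2000 nt after it. At the inner limit, 247 clusters lay within 100 nt beyond a gene end and 1313 midpoints lay in the last 100 nt of a gene.

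**Figure D2:**
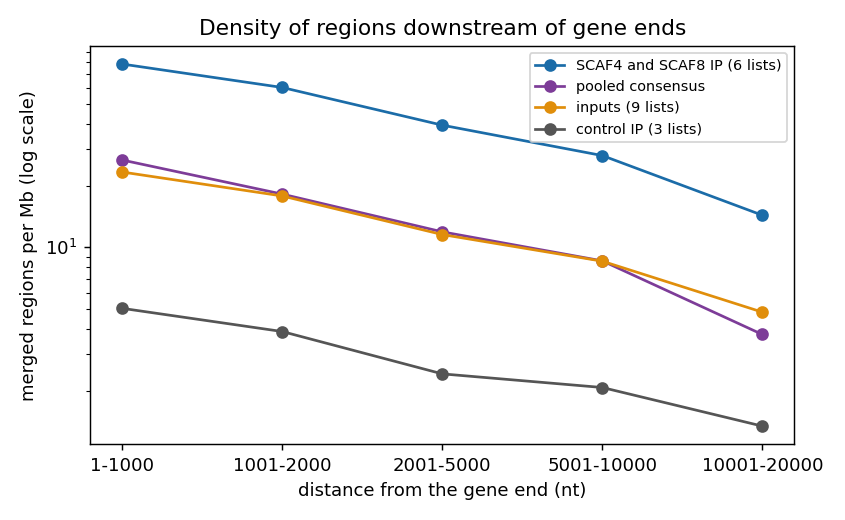
Merged regions per Mb of available downstream sequence (log scale) against distance from the gene end in nt. Lines are SCAF4 and SCAF8 IP, pooled consensus, inputs and control IP; SCAF IP falls from 78.2 per Mb in the first bin to 14.3 in the last, and all 4 lines fall.

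SCAF IP clusters tended to lie nearer to the gene end than those of the inputs of their own lines. The median distance was 3058, 3981 and 4045 nt in SCAF4 IP and 4714, 5008 and 4991 nt in SCAF8 IP. In their inputs it was 3649, 5771 and 5083 nt for the SCAF4 line and 5549, 5425 and 5653 nt for the SCAF8 line. Each of the 6 IP lists was below the input of its own line and number, although the groups overlapped. The means differed by −889 nt (two-sided exact permutation test, p = 0.067), and by the exact sign-flip permutation test on the 6 IP-input pairs p = 0.031, the smallest those pairs allow. Among clusters scoring no lower than their list's median, the difference was −399 nt (exact permutation test, p = 0.433). Control IP medians (5780, 6407 and 5814 nt) lay above all 6 SCAF IP lists by this measure (difference of means −1701 nt, exact permutation test, p = 0.0238, adjusted p = 0.0729). With the same score filter this last difference turned to 376 nt the other way. The 3 SCAF4 IP medians lay below the 3 SCAF8 IP medians (exact permutation test, p = 0.10, the smallest possible). Control input medians were 4274, 5488 and 5012 nt and were not tested against SCAF IP. Replicate 1 of control input thus lay below all 3 SCAF8 IP medians.

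Many downstream clusters lay opposite a gene of the other strand. In SCAF4 IP 34.9%, 47.1% and 47.9% of the downstream midpoints fell in such a gene body, and in SCAF8 IP 35.5%, 46.5% and 44.8%. The inputs gave 21.4%, 28.7% and 26.5% for the SCAF4 line and 26.2%, 36.7% and 35.5% for the SCAF8 line. Each IP list was above its own input, and the mean was higher by 13.6 points (42.8% ± 5.94 against 29.2% ± 5.87, n = 6 each, exact permutation test, p = 0.0108, adjusted p = 0.0729). Without replicate 2 the p was 0.0571 and without replicate 3 it was 0.0857, both by exact permutation. Such genes covered 42.4% of the available downstream sequence, so the SCAF IP share was near this level and the input share below it. Against control IP (36.4%, 28.3% and 37.3%) the difference of 8.79 points did not pass (exact permutation test, p = 0.119).

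In SCAF IP lists 16.2 to 25.5% of downstream midpoints fell opposite an annotated exon, against 10.1% of the available sequence. A cluster of the same list on the opposite strand overlapped 0.42 to 3.83% of the downstream clusters. The gene next to a downstream cluster held a cluster in its own body in the same list for 83.1 to 94.2% of them in SCAF IP and 60 to 81.8% in the inputs. The SCAF IP lists were also longer (18287 to 54404 clusters, against 4567 to 12493 in the inputs), and the part of list length in this share was not tested.

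**Figure D3:**
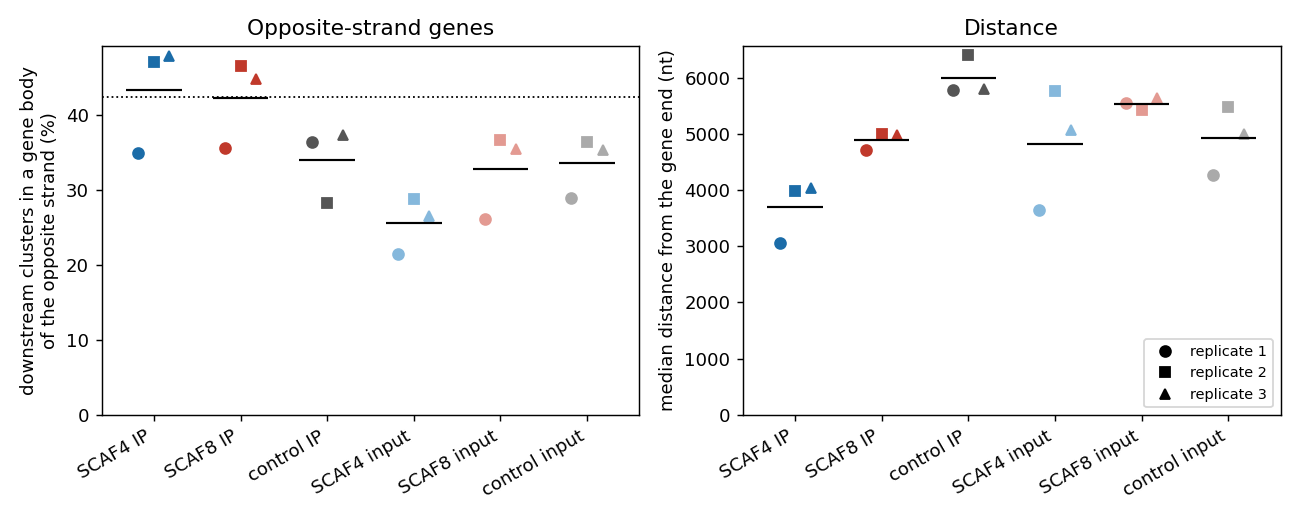
Left, percentage of each list's downstream clusters lying in a gene body of the opposite strand, with the 42.4% of available sequence as a dotted line; right, median distance from the gene end in nt. Points are lists and horizontal lines group means; each SCAF IP list is above the input of its line and number on the left and below it on the right.

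Downstream clusters were somewhat longer in SCAF IP, with a mean of the list medians of 147 nt ± 2.25 against 134 nt ± 14.1 in the inputs of those lines (n = 6 each, exact permutation test, p = 0.0433, adjusted p = 0.0909). Paired by line and number the exact permutation p was 0.0625, without replicate 2 it was 0.257 and without replicate 3 it was 0.286, and within 5000 nt of the gene end the difference was 6 nt (exact permutation test, p = 0.305).

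Downstream RNA in the clusters was richer in GC than RNA in gene bodies. In the 100 nt around midpoints, GC averaged 51.7% ± 1.29 downstream and 49.2% ± 0.80 in protein-coding gene bodies over the 6 SCAF IP lists, higher downstream in 6 of 6 (difference 2.46 points, exact sign-flip permutation test, p = 0.031, the smallest 6 lists allow, adjusted p = 0.0729). The inputs of those lines had an excess of 1.52 points, less than SCAF IP (exact permutation test, p = 0.030, adjusted p = 0.0729), but with each IP list paired with its own input the p was 0.125 by exact permutation. With opposite-strand gene bodies left out, the SCAF IP excess was 0.59 points (exact sign-flip permutation test, p = 0.0625) and the difference from the inputs turned to −0.54 points. Windows placed every 2000 nt over the available sequence had 45.8% GC. The parental cells, without a tagged protein, showed an excess downstream as well. GC was 52.3% downstream and 49.3% in bodies in control IP, and 48.2% and 45.5% in control input. These values were not tested against SCAF IP.

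**Figure D4:**
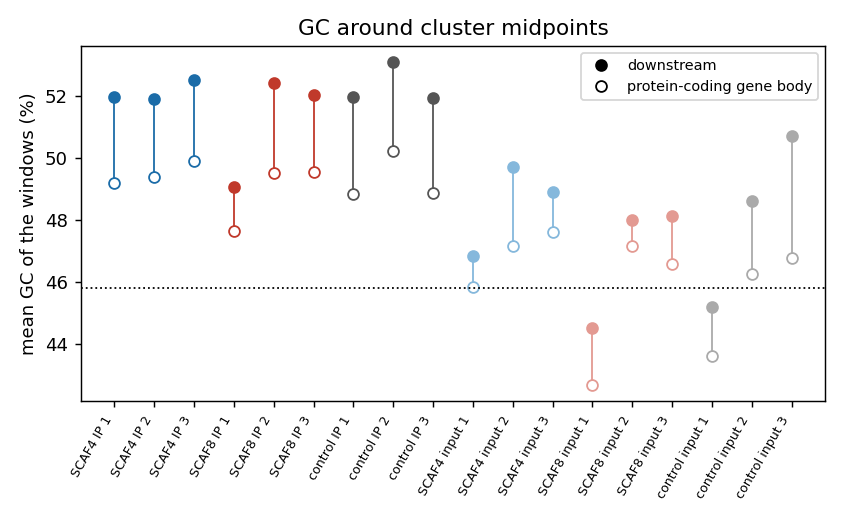
Mean GC percentage of 100 nt windows around cluster midpoints in each of the 18 lists. Filled points are downstream clusters, open points clusters in protein-coding gene bodies and the dotted line the 45.8% of evenly placed downstream windows; filled points lie above open points in each list.

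The triplets CGG or CGA were present in 63.9% of downstream windows and 66.9% of body windows of the SCAF IP lists, lower downstream in 5 of 6 lists (difference −3.03 points, exact sign-flip permutation test, p = 0.094). With opposite-strand gene bodies left out the difference was −8.14 points (exact sign-flip permutation test, p = 0.031). Evenly placed windows held them in 44.4%. The sequence [C/G]CAG[C/G] occurred in 48.9% downstream and 42.1% in bodies, and C[U/A]CC in 52.3% and 47.9%, both higher downstream in 6 of 6 lists (exact sign-flip permutation test, p = 0.031 each, adjusted p = 0.0729). Evenly placed windows held these in 48.5% and 57.7%. With opposite-strand gene bodies left out, the difference for [C/G]CAG[C/G] fell from 6.81 to 1.35 points (exact sign-flip permutation test, p = 0.375) and that for C[U/A]CC turned from 4.44 to −0.74 points. The polyadenylation hexamer AATAAA was present in 2.53% downstream and 3.14% in bodies, lower downstream in 6 of 6 lists (exact sign-flip permutation test, p = 0.031). That call was lost with opposite-strand gene bodies left out (−0.13 points, exact sign-flip permutation test, p = 0.875). Evenly placed windows held it in 7.08%. Motifs were searched on the transcribed strand. Downstream and body shares of the other lists were not tested. For these, [C/G]CAG[C/G] occurred in 43.9% and 40.1% in control IP, 41.2% and 33.8% in control input and 38.6% and 35.2% in SCAF line inputs. C[U/A]CC occurred in 50.9% and 46.4% in control IP, 44.2% and 38.7% in control input, and 42.4% in both classes of SCAF line inputs. For CGG or CGA the shares were 69.0% and 69.7% in control IP and 53.6% and 54.6% in control input. AATAAA shares there were 1.40% and 2.55%, and 4.22% and 4.42%. SCAF line inputs had 54.9% and 57.7% for the triplets and 3.51% and 4.11% for AATAAA. For the triplets and AATAAA, the means of these other lists were thus lower downstream as well.

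A small subset carried the sequence GTTCGANTC, the B box inside tRNA genes that recruits TFIIIC. The annotation used holds no nuclear tRNA genes, so such genes count as sequence outside gene bodies. The number of these clusters was 8 to 15 in each SCAF IP list and 11 to 16 in each input of those lines, although the lists differed in length. They therefore made up 1.25% ± 1.06 of downstream clusters in SCAF IP and 4.71% ± 2.11 in these inputs (n = 6 each, exact permutation test, p = 0.00866, adjusted p = 0.0729). Without replicate 2 or without replicate 3 the p was 0.0571, by exact permutation. Among clusters scoring no lower than their list's median, the difference shrank from −3.46 to −0.48 points and did not pass (exact permutation test, p = 0.173). Without that filter, the parental cells had a share of 7.75% in control IP, from 4 to 11 clusters per list, and 3.41% in control input. These shares were not tested against SCAF IP. In gene bodies of the SCAF IP lists the share was 0.072%, a difference of 1.18 points that shrank to 0.13 points with the same score filter (exact sign-flip permutation test, p = 0.344), and 6 of 65607 evenly placed windows held the motif. These 3 regions were covered in all 18 lists, and were chosen after their values were seen. The B box is in capitals.
H2AC12, chr6:27158168-27158197, plus strand: agcaacctcgGTTCGAATCcgagtcacggc
HES7, chr17:8120315-8120344, minus strand: ggaggcgtggGTTCGAATCccaccgctgcc
TRIM27, chr6:28896224-28896253, minus strand: ggaggcgtggGTTCGAATCccacttctgac

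Regions were called as consensus where clusters of at least 2 of 3 replicates (2 of 6 lists for SCAF4 and SCAF8 pooled) merged, with clusters of at most 1 input list and of no control IP list over them. SCAF4 had 535 downstream consensus regions next to 315 genes, 22.5% of 2375 merged regions, where the rule called 29.3% of all merged SCAF4 regions. SCAF8 had 522 next to 323 genes, 17.8% of 2929, against 19.4% of all. The pooled set had 1175 next to 588 genes, 29.8% of 3942, against 35.9% of all. Downstream regions were thus called at a lower rate than all regions, which include the downstream ones. SCAF4 consensus regions fell to 92 without replicate 2 and 112 without replicate 3, SCAF8 regions to 251 and 121, and pooled regions to 628 and 500. Without replicate 1 the SCAF4, SCAF8 and pooled numbers were 563, 443 and 1165. The minimum of 2 lists was kept, so SCAF4 and SCAF8 regions then had to be in each remaining list. Inputs and control IP of that replicate were left out too. Requiring 3 lists left 69, 85 and 484.

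The SCAF4 and SCAF8 sets shared regions in part. Of the SCAF4 regions 31.2% overlapped a SCAF8 region, and of the SCAF8 regions 32.8% overlapped a SCAF4 region. Over all consensus regions these shares were 31.8% and 57.0%, so the downstream share was close to that of all regions for SCAF4 and below it for SCAF8, a difference that was not tested. Both sets named 152 genes, 48.3% of the SCAF4 genes and 47.1% of the SCAF8 genes. Pooled consensus regions had a median length of 194 nt and a median distance of 4275 nt, 224 lay within 1000 nt and 234 beyond 10000 nt, and 49.3% lay opposite a gene body.

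Most genes had few such regions: 354 had 1, 110 had 2, 93 had 3 to 5 and 31 had 6 or more. The 565 genes that also held a cluster in the body in any list were 5.75% of the 9830 such genes. Their bodies held a median of 28 SCAF IP clusters, against 8 for the other 9265, and their median lengths were 19474 and 38850 nt.

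CDT1, whose product licenses replication origins, led with 19 pooled consensus regions from 152 to 19218 nt beyond its end on chromosome 16. Its downstream clusters numbered 1, 26 and 20 in SCAF4 IP and 0, 1 and 12 in SCAF8 IP, and 0 in all 12 input and control IP lists. They were thus found mainly in replicates 2 and 3 of SCAF4 IP and replicate 3 of SCAF8 IP. Of the 19 regions 17 lay opposite another gene, and APRT and GALNS, read from the other strand, reach into this stretch. CDT1 kept 8 regions without replicate 2 and 1 without replicate 3, where STUB1 had 10 and 11, so the lead of CDT1 rested on those replicates.

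STUB1, which encodes the ubiquitin ligase CHIP, had 16 regions, all opposite another gene (JMJD8, WDR24 and FBXL16 lie there). Its clusters numbered 7, 35 and 18 in SCAF4 IP, 2, 16 and 19 in SCAF8 IP, and 10 in the 12 other lists together. ECI1, an enoyl-CoA isomerase of fatty acid oxidation, had 13 regions, all opposite another gene, with DNASE1L2 and E4F1 on that strand. The next gene on the strand of ECI1 begins 2489 nt beyond it, while the ECI1 regions reach 11001 nt. Its counts were 1, 12 and 9 in SCAF4 IP and 0, 12 and 19 in SCAF8 IP, against 6 in the 12 other lists. Replicate 1 was the lowest of each of these groups.

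RRP1, a nucleolar protein of rRNA processing, had 15 regions up to 15457 nt away and 6 of them were opposite another gene. It was also well covered in the background, with 114 SCAF IP clusters, 16 in control IP and 51 in inputs. TOMM20, a receptor for protein import into mitochondria, had 9 regions with 103 SCAF IP clusters and 64 in the inputs, none of them opposite a gene among its consensus regions. The next gene of its strand begins 4732 nt beyond TOMM20, while the TOMM20 regions reach 19091 nt. RAD54L, a factor of homologous recombination, had 10 regions, all opposite another gene, with LRRC41 there, and PHRF1, a PHD and RING finger protein, had 10, of which 9 were. Downstream of RAD54L lay 53 SCAF IP clusters, 4 of control IP and 26 of inputs, and downstream of PHRF1 46, 0 and 7.

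Among the leading 10 genes, RPS3 and RPL21 encode ribosomal proteins and MRPL36 a protein of the mitochondrial ribosome. RPS3 had 9 regions, with 0, 5 and 1 clusters in SCAF4 IP and 0, 9 and 22 in SCAF8 IP, so that SCAF8 IP replicates 2 and 3 held the most. RPL21 had 9 regions between 2996 and 12481 nt, with 0, 15 and 10 clusters in SCAF4 IP and 2, 4 and 12 in SCAF8 IP. MRPL36 had 9 regions, with 43 SCAF IP clusters downstream and 3 in its body. Control IP and inputs held 4 and 14 clusters downstream of MRPL36, 1 and 15 downstream of RPL21, and 0 and 6 downstream of RPS3.

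**Figure D5:**
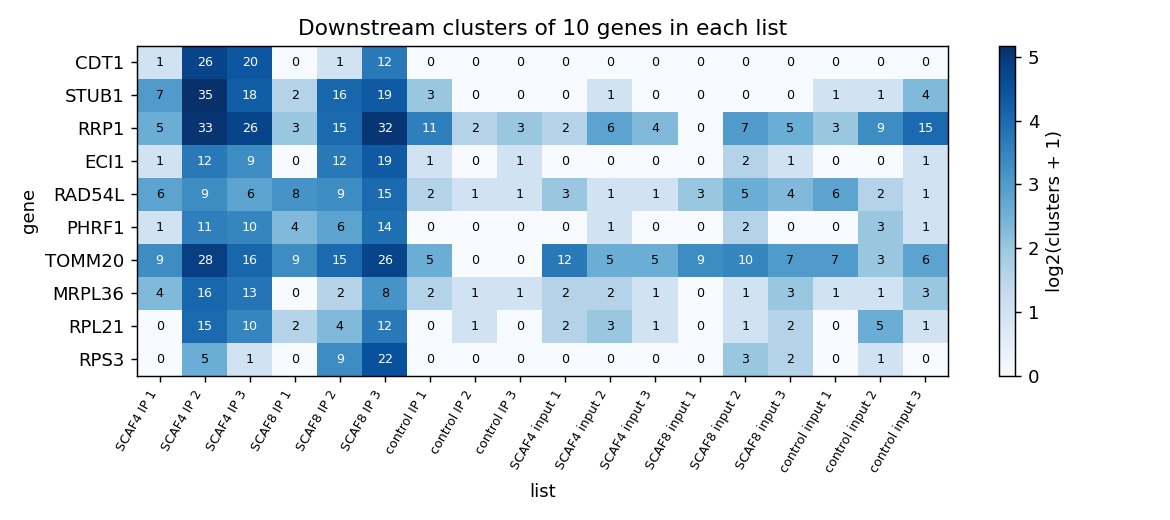
Downstream clusters of the 10 genes with the most pooled consensus regions (rows) in each of the 18 lists (columns); numbers are clusters and shading is log2(clusters + 1). SCAF IP replicates 2 and 3 hold most clusters, CDT1 has 0 in the 12 other lists, and RRP1, TOMM20, RAD54L, MRPL36 and RPL21 have clusters in most inputs.

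When genes were removed for holding 1 or more merged input regions for every 10 kb, a further step of the study's own filter, the pooled set fell to 341 regions next to 242 genes. Among 25 genes with a pooled consensus region, named by their number of regions or as readthrough examples, CPSF2 alone kept its 1 region. Genes named only through a single region, such as LCN10 and ATP4A, were not followed in this step.

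The 3 pooled consensus regions farthest from a gene end lay 19788 nt beyond ATP4A, 19729 nt beyond STUB1 and 19719 nt beyond FAM98B. The ATP4A region was covered in 1 SCAF4 and 1 SCAF8 list, and ATP4A, a gastric proton pump gene, held 0 clusters in its body. The next gene of that strand, TMEM147-AS1, begins 4002 nt beyond the ATP4A end and so lies between. The FAM98B region was covered in 2 SCAF8 lists and in no SCAF4 list, inside RASGRP1 of the opposite strand. Genes of the same strand lie between here too, beginning 5598 nt beyond FAM98B and 6131 nt beyond STUB1.

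Gene lists were described by counts beside the 5.75% of all genes with a cluster in the body. Of 77 cytoplasmic ribosomal protein genes with such a cluster 30 (38.96%) had a pooled consensus region downstream, with a median of 29 SCAF IP clusters in the body against 9 for all genes. In the inputs, 22 of all 79 ribosomal protein genes had a downstream cluster, against 511 of 20046 protein-coding genes. RPL36 had 154 SCAF IP clusters downstream against 70 in the inputs, and RPL11 had 91 against 82. RPL13 had 7 regions, and 30 SCAF IP clusters downstream against 2 in the inputs. Of 50 replication-dependent histone genes, which end their mRNAs without a poly(A) tail, 5 (10.0%) had one. H4C15 and H2AC11 had 2 each and H4C14 had 1, and reads of such near-identical genes may be assigned to the wrong copy. Of 42 heat shock and chaperone genes 4 (9.52%) had one: DNAJC7 had 4 regions, and DNAJC5 and HSPD1 had 1 each.

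Of 355 zinc finger genes 14 (3.94%) had a region, led by ZNF146 with 4, ZNF780B with 3 and ZNF226 with 2. ZNF146 had 86 downstream clusters in SCAF IP and 73 in the inputs. Of 17 genes for CTD-binding and termination proteins 1 had one, CPSF2, a subunit of the cleavage complex, at 7841 nt. None of the 13 mitochondrial genes held a cluster, and no list held a cluster on the mitochondrial chromosome.

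The genes that the study listed as readthrough genes from nascent RNA of knockout cells were compared by name only. Of 985 with a cluster in the body 47 (4.77%) had a pooled consensus region, near the 5.75% of all genes. SERBP1, an mRNA-binding protein gene, had 7 regions, and GLRX3 and NPM1 had 5 each. GLRX3 downstream clusters were all in SCAF8 lists among the IPs, with 2, 7 and 14 against 0 in each SCAF4 IP list. ATG5, an autophagy gene, and SMAD2, a signal transducer of TGF-beta, had 0 downstream clusters in all 18 lists, with 24 and 11 SCAF IP clusters in their bodies. MACIR had 1 region 1943 nt downstream, covered in SCAF4 IP replicate 2 and SCAF8 IP replicate 3. These counts are of clusters in cells that express SCAF4 and SCAF8, and a gene at 0 had no cluster called at this depth.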

How the data were processed

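Per the labels and the study's methods, the authors trimmed the reads with cutadapt through Trim Galore, aligned them to GRCh38 with Bowtie2 2.2.9, removed duplicates with Picard, combined the soluble and chromatin libraries of a replicate (36 libraries, 18 lists) and called clusters with PARalyzer, with minimum numbers of reads and T-to-C conversions. Replicate 1 had longer reads than replicates 2 and 3. The deposited lists give positions, strand and a score for each cluster (0.501 to 1, used only for a filter) but no read counts, so depth is unknown and a longer list may reflect deeper sequencing. No cluster ran past a chromosome end of the GRCh38 sequence used.

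Clusters were assigned by midpoint to GENCODE 44 genes of their strand (Python 3.11.15, pandas 2.3.3, numpy 2.4.6, scipy 1.17.1, pysam 0.24.0). Motifs were counted in 100 nt windows. Merged regions shared at least 1 nt. Lists were compared by two-sided exact permutation tests, and downstream with body clusters by exact sign flips, with Benjamini-Hochberg adjustment over 21 tests, of which 10 were planned. No adjusted p was under 0.05. Replicates are separate labelled samples, and p-values measure only their spread. IP and input of the same line and number came from the same extract. Over 3423 genes, deviations from the group means correlated with a median of 0.19 (0.071 to 0.37, 9 pairs) for the same number and −0.16 for different numbers. Such deviations cancel out within a group, so the negative value follows largely from the positive one and is not separate evidence of pairing.

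Named genes were the 10 with the most pooled downstream consensus regions, up to 3 of each list, and ATG5, SMAD2 and MACIR; named regions were the 5 consensus and 5 background regions in the most lists and the 3 farthest. The members and lists were chosen with earlier results of these data known. The study's readthrough sheet gave 1281 symbols, of which 1270 matched. Code was tested on simulated data.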

Additional observations from a re-analysis of the deposited data

How the results depend on the processing

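None of the comparisons of downstream shares crossed the threshold in any setting tried. The difference between SCAF IP and own inputs, 0.055 points, changed sign with opposite-strand gene bodies left out (−0.49), at or above the median score (−0.24), with clusters within 200 nt counted as 1 (−0.077) and on the log2 scale (−0.037). Within a line, SCAF4 turned to 0.12 with a limit of 5000 nt, and SCAF8 to −0.23 without opposite-strand gene bodies and −0.066 at the higher scores. Leaving out a replicate gave −0.18 to 0.25 points for SCAF IP against own inputs, 0.62 to 1.99 against control IP, −2.10 to −1.22 for SCAF4 against SCAF8, and −0.38 to −0.051, 0.022 to 0.54 and −3.03 to −1.44 within the SCAF4, SCAF8 and control lines. Replicate block: permuting labels within replicate numbers left the difference in share at 0.055 points (p = 0.926, exact permutation) and changed no call among the planned comparisons. Pairing each IP with its own input, an alternative chosen after seeing the data, gave p = 0.844 for the share by exact permutation and brought the median distance (−889 nt) past the threshold. Among the added comparisons, permuting within numbers ended the call for the distance from control IP, and pairing ended those for the GC excess and the cluster length.

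The median distance also passed with a limit of 5000 nt (−167 nt), without opposite-strand gene bodies (−1157 nt) and without replicate 1 (−977 to −782 nt over the omissions), but fell to −399 nt at the higher scores. The GC difference (2.33 to 2.63 points without a replicate, where 4 lists cannot reach the threshold) was 0.59 points without opposite-strand gene bodies. The CG[G/A] difference passed without those gene bodies (−8.14 points) and at the higher scores (−4.40), and was −3.26 to −2.65 without a replicate. The AATAAA difference lost its call without those gene bodies (−0.13), at the higher scores (−0.65) and in 50 nt windows (−0.30). It was −0.78 to −0.36 without a replicate, where 4 lists again cannot reach the threshold. In the comparisons added after seeing the data, sign changes were −0.74 points for C[U/A]CC and −0.54 for the GC excess without opposite-strand gene bodies, and 376 nt for the distance from control IP at the higher scores. The 10 leading genes held 1 to 10 pooled regions each without replicate 2 and 1 to 11 without replicate 3.

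Downstream consensus regions of SCAF4, SCAF8 and the pooled set numbered 69, 85 and 484 in 3 lists, 146, 132 and 341 with input-dense genes removed, 314, 268 and 646 within 5000 nt, and 234, 224 and 636 at the higher scores. Leaving out a replicate gave 92 to 563, 121 to 443 and 500 to 1165. Excluding chromosome M and unplaced sequences changed nothing, since the lists hold none. Read depth limits every absence of a cluster. The cause of these changes was not tested.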
